A study of Mus musculus with 2 samples.

Results

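Cxcl1, Cxcl2, Cxcl9, Cxcl10, Cxcl12, Ccl2, Ccl7, Ccl11, Cx3cl1 and Il6 are 10 of the 32285 genes measured by single-cell RNA sequencing in the mouse retinal pigment epithelium (RPE) and the tissue behind it. The 10 were matched by gene symbol, and for each one the unique molecular identifiers (UMIs, one per captured RNA molecule) were counted per cell, cell type and library. The question was which cells carried the RNA of these secreted signals, and whether their levels differed after doxorubicin. Fibroblast-like cells were the highest class for 6 of the 10 genes, macrophage-like cells for Cxcl2, Ccl2 and Cxcl9, and endothelial-like cells for Cx3cl1 over both libraries. For Cxcl9 the first place differed between the libraries, with macrophage-like cells highest in control (20.4 against 14.1 in fibroblast-like cells, in UMIs per 1000000) and endothelial-like cells in Dox (20.6, against 12.7 in fibroblast-like and 3.73 in macrophage-like cells). A single cell held 77 of the 107 macrophage-like UMIs in control, and another 18 of the 19 endothelial-like UMIs in Dox. The Dox intervals of endothelial-like and fibroblast-like cells overlapped. By UMIs per 1000000, RPE-like cells were the lowest class for 7 of the 10. They were also the class with the most UMIs per cell, a median of 17162 in control and 19781.5 in Dox. Counted per cell the order differed: control RPE-like cells held 2.99 Cxcl1 UMIs, above melanocyte-like (1.97) and Schwann-like cells (2.18) and below the other named classes.

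Cells came from the RPE, choroid and sclera of C57BL/6J male mice, 3 months old, with the retina taken away, the tissue digested with papain and dead cells removed. The control library was made 7 days after a subretinal injection of 1 µl of PBS, and the Dox library 7 days after 1 µl of 100 ng/µl doxorubicin, a topoisomerase poison used here at a low dose to bring on senescence in the RPE. Each library pooled 10 eyes of 5 mice, and each condition had 1 library, so no test of the treatment was possible and mouse, injection, library and treatment cannot be told apart. All intervals given are 95% intervals that cover counting error only.

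After filtering, 20180 control and 15426 Dox cells were kept of 20381 and 15649, with a median of 4495 and 4995 UMIs per cell, and 427 cell barcodes occurred in both libraries. Although the libraries were labelled RPE, RPE-like cells were 1421 (7.04%) and 1490 (9.66%) of the kept cells, and fibroblast-like cells were 12691 (62.9%) and 9727 (63.1%). Macrophage-like cells numbered 971 and 531, endothelial-like cells 423 and 244, smooth muscle-like cells 890 and 389, NK or T-like cells 463 and 274, melanocyte-like cells 2194 and 2075, and Schwann-like cells 61 and 33. In the RPE-like class 11 of 12 RPE markers were above 10 UMIs per 1000000 in both libraries. The same count was found in every other class, so it does not set the RPE-like class apart. The summed level of the 12 markers did differ, at 102956 in control and 104184 in Dox. In melanocyte-like cells, the next class, it was 12660 and 32318. The melanocyte-like class was led by a haemoglobin gene, Hbb-bs, and the macrophage-like class by antibody genes together with Cd209a, a dendritic cell and macrophage gene. Clusters were built without chemokine genes, their receptors and Il6, so that none of the 10 genes shaped the classes in which it was then measured.

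Chemokines are small secreted proteins that steer leukocytes along concentration gradients by binding G protein-coupled receptors. Cxcl1 and Cxcl2 bind Cxcr2 on neutrophils, Cxcl9 and Cxcl10 are induced by interferon and bind Cxcr3 on activated T and NK cells, Cxcl12 binds Cxcr4 and the scavenger receptor Ackr3, Ccl2 and Ccl7 bind Ccr2 on monocytes, Ccl11 binds Ccr3 on eosinophils, and the membrane-tethered Cx3cl1 binds Cx3cr1 on monocytes and microglia. Il6 is a cytokine that signals through Il6ra and Il6st, and together with Cxcl1 and Ccl2 it is one of the best known parts of the secretory phenotype of senescent cells.

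The genes lay in groups on the mouse genome (GRCm38, GENCODE vM21). On chromosome 5, Cxcl1 (90891241 to 90893115, plus strand) and Cxcl2 (90903871 to 90905938, plus strand) were 10755 bases apart, and Cxcl9 (92321347 to 92328079, minus strand) and Cxcl10 (92346638 to 92348889, minus strand) were 18558 bases apart. Il6 lay on the same chromosome at 30013114 to 30019981 on the plus strand. On chromosome 11, Ccl2 (82035571 to 82037453), Ccl7 (82045712 to 82047525) and Ccl11 (82057823 to 82062955) followed one another on the plus strand with gaps of 8258 and 10297 bases. Cxcl12 (chromosome 6, 117168535 to 117181367) and Cx3cl1 (chromosome 8, 94772009 to 94782427) each lay apart on the plus strand.

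Stretches of the promoters of 5 genes are shown because they hold the same kind of motif although the genes lay at several places and were highest in different cells. They are RefSeq promoters (GRCm38.p6), read in the direction of transcription, in which capitals mark the letters that matched the NF-kB motif (GGG, any 2 bases, TT, any base, CC) or, in the stretch so named, the interferon-response motif (GAAA, any 2 bases, GAAA), searched on both strands in the 250 bases before the start.
Cxcl1: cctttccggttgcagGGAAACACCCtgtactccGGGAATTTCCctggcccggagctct
Cxcl2: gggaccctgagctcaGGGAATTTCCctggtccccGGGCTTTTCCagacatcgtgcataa
Cxcl9: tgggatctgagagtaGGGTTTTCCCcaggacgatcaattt
Cxcl10, NF-kB motif: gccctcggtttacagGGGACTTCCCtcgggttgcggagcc
Cxcl10, interferon-response motif: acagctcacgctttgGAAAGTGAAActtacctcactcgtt
Il6: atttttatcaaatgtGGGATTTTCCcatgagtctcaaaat
These stretches lie at chr5:90891141-90891198 (plus), chr5:90903787-90903845 (plus), chr5:92328185-92328224 (minus), chr5:92348968-92349007 (minus), chr5:92349078-92349117 (minus) and chr5:30013055-30013094 (plus), in the order shown. The NF-kB motif matched in 5 of the 7 members found in the promoter table and in 4.11% of all 32851 promoters, and Cxcl1 and Cxcl2 each held 2 matches, the first in Cxcl1 being on the opposite strand. Cxcl10 was the 1 of the 7 with the interferon-response motif, found in 2.98% of promoters, and Cxcl10 and Il6 held the AP-1 motif TGAGTCA, found in 4.46%. Cxcl12 and Cx3cl1, which held none of the 3 motifs in this window, and the 5 others were all in the table, whereas Ccl2, Ccl7 and Ccl11 were not.

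Cxcl1, a neutrophil attractant, was a gene of the fibroblast-like cells. With the control value first and the Dox value second here and in what follows, unless stated, its level there was 2621 (2609 to 2633) and 2497 (2484 to 2510) UMIs per 1000000 of the class (CPM), and next came endothelial-like cells with 984 (939 to 1032) and 767 (711 to 825). RPE-like cells held 166 (161 to 171) and 101 CPM (97.9 to 105.1), the lowest of the 8 named classes in both. Most fibroblast-like cells carried the RNA: with each cell thinned to 1000 UMIs and shallower cells left out, which dropped few cells of most classes but kept 1315 of 2194 and 700 of 2075 melanocyte-like cells, 62.6% and 60.6% had at least 1 Cxcl1 UMI, against 16.6% and 15.9% of NK or T-like cells and 10.8% and 5.99% of RPE-like cells. The 10% of fibroblast-like cells with the most Cxcl1 held 40.4% and 41.2% of its UMIs, against 20.9% and 19.6% of all UMIs held by the deepest 10% of these cells. The source was broad, and within it the level varied by more than the depth of the cells.

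**Figure D1:**
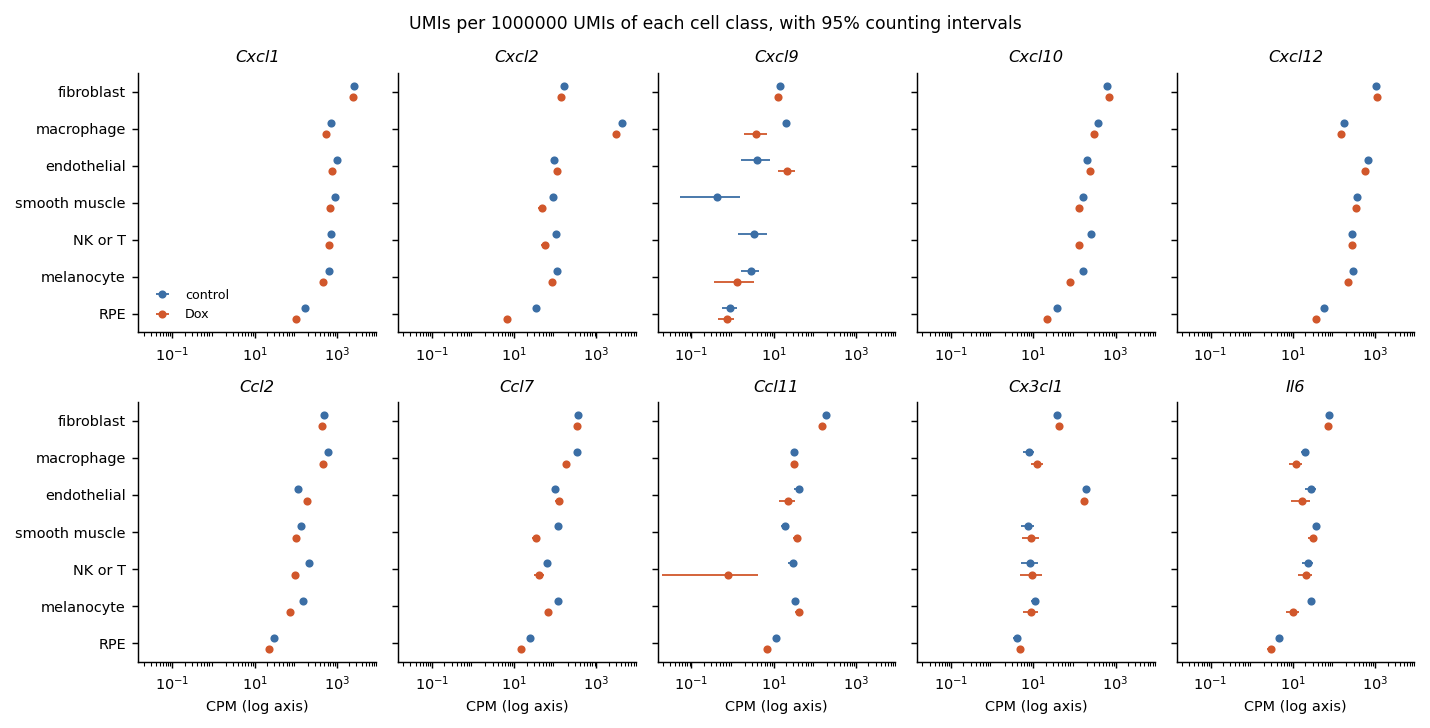
Level of each of the 10 genes in the cell classes, in UMIs per 1000000 of the class on a log axis, with one panel per gene, one point per library and bars for the 95% counting interval. Cxcl1 stood highest in fibroblast-like cells (2621 and 2497), Cxcl2 in macrophage-like cells and Cx3cl1 in endothelial-like cells. In these units, which divide by the depth of a class, RPE-like cells were lowest for 7 genes. Schwann-like and unnamed cells are not drawn, nor is Cxcl9 in the Dox NK or T-like and smooth muscle-like cells, where it was at 0.

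Cxcl2, the close relative of Cxcl1 at the neighbouring locus, had another source. Macrophage-like cells held 4248 (4193 to 4305) and 2999.6 CPM (2937 to 3063), which over both libraries was 25.0-fold above the next class. These cells were 4.81% and 3.44% of all cells but held 62.1% and 50.3% of all Cxcl2 UMIs. A single macrophage-like cell held up to 729 Cxcl2 UMIs in control and 329 in Dox, and 369 of the 971 control cells and 185 of the 531 Dox cells had at least 10. In fibroblast-like cells the level was 162 CPM (159 to 165) and 138 CPM (135 to 141). These fibroblast-like cells held 30.0% and 44.2% of all Cxcl2 UMIs, with 284 and 229 cells at 10 or more and 86.0% and 96.5% of the UMIs of the class in its top 10%. Detection in the other classes was lower than in macrophage-like cells: in control, 13.1% to 21.8% of the cells of every other class had a UMI although median depth ran from 1319.5 to 17162 UMIs, and in Dox 6.20% to 12.8% did. At 1000 UMIs per cell, 3.96% to 9.91% of the cells of the other classes had one in control, against 55.7% of macrophage-like cells, and 0.807% to 6.06% in Dox, against 49.7%. The level in the classes other than macrophage-like was uneven in Dox, from 6.82 CPM in RPE-like to 321 CPM in Schwann-like cells, where it rested on 39 UMIs.

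The macrophage-like cells with the most Cxcl2 had a median of 110.5 UMIs of it in control and 81.5 in Dox. Their fibroblast RNA, the summed UMIs of Dcn, Mgp, Col1a1, Col1a2, Col3a1 and Lum, had a median of 1 UMI in control, the same as in the remaining macrophage-like cells. Their median doublet score was 0.155 against 0.169. For Cxcl1 the picture in the same class differed. The 10% of control macrophage-like cells highest in Cxcl1 had a median of 61.5 UMIs of fibroblast RNA against 1, and a doublet score of 0.434 against 0.160. Their median depth was 8452 UMIs against 3846, and that of the cells highest in Cxcl2 was 6161.5 against 3927. Whether the cells highest in Cxcl1 were doublets was not tested. In control endothelial-like cells, the second class for Cxcl1, those highest in it had 71 UMIs of fibroblast RNA against 4. Their doublet score was 0.422 against 0.103. In Dox the values were 30 against 5, and 0.235 against 0.139.

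Cxcl9 and Cxcl10, which attract activated T and NK cells, were both found in fibroblast-like cells and shared cells there. Cxcl10 stood at 636 (630 to 642) and 704 CPM (697 to 711) in that class, at 376 (359 to 393) and 295 (276 to 316) in macrophage-like cells, and at 38.1 (35.8 to 40.6) and 21.6 (19.99 to 23.3) in RPE-like cells. A UMI of Cxcl10 was found in 27.7% and 28.7% of fibroblast-like cells, and the top 10% of them held 81.3% and 79.9% of its UMIs. Cxcl10 was thus concentrated in a minority of fibroblast-like cells, unlike Cxcl1.

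Cxcl9 was rare. Its fibroblast-like level was 14.1 (13.2 to 14.99) and 12.7 CPM (11.8 to 13.7), from 1.63% and 1.55% of the cells. The macrophage-like class was its highest through one cell, which held 77 of the 107 control UMIs, and the Dox macrophage-like cells had 11 UMIs in all (3.73 CPM). Of the 207 control fibroblast-like cells with Cxcl9, 55.6% were also among the 10% with the most Cxcl10, and of the 151 in Dox 57.0% were. They made up 9.06% and 8.84% of the Cxcl10-high cells. Their median depth was 5146 UMIs against 4670.5 in the rest in control and 5255 against 5351 in Dox. For comparison, 20.1% and 22.6% of the cells highest in Cxcl1 were among those highest in Cxcl10.

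Cxcl12, which retains haematopoietic and lymphoid cells in tissue and is made by stroma without inflammation, was the most widely detected of the 10 before thinning. With each cell thinned to 1000 UMIs, Cxcl1 came first in fibroblast-like cells, with 62.6% and 60.6% against 58.6% and 58.3% for Cxcl12. A UMI was found in 89.3% of control and 90.2% of Dox fibroblast-like cells, with levels of 1051 CPM (1043 to 1059) and 1089 CPM (1081 to 1098). The top 10% of these cells held 31.6% and 31.4% of its UMIs, the lowest such share among the 10 genes in their highest class. Endothelial-like cells followed with 652 CPM (615 to 691) and 567 CPM (519 to 617), and their intervals overlapped those of the Schwann-like cells in both libraries. At 1000 UMIs per cell, 32.6% and 28.8% of endothelial-like cells had Cxcl12, against 9.44% and 9.85% of NK or T-like cells.

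Ccl2 and Ccl7, monocyte attractants encoded side by side, were shared by macrophage-like and fibroblast-like cells. Ccl2 stood at 616 (595 to 638) and 454 CPM (430 to 479) in macrophage-like cells, and at 481 (476 to 487) and 439.6 (434 to 445) in fibroblast-like cells, so that the 2 classes were apart in control and overlapped in Dox. Since fibroblast-like cells were far more numerous, they held 81.9% and 88.5% of all Ccl2 UMIs. For Ccl7 the 2 classes overlapped in control, with 351 CPM (346 to 355) in fibroblast-like and 338 CPM (323 to 355) in macrophage-like cells, and stood apart in Dox, with 337 CPM (332 to 341) and 184 CPM (169 to 200).

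Both genes were concentrated in few cells. The top 10% of macrophage-like cells held 78.4% and 79.4% of the Ccl2 UMIs of the class, and the top 10% of fibroblast-like cells held 90.2% and 91.2% of those of Ccl7. Among macrophage-like cells 50 of the 98 control cells highest in Ccl2 were also among the 98 highest in Ccl7, and 27 of 54 were in Dox. In fibroblast-like cells the same share was 27.2% and 25.0%. The control macrophage-like cells highest in Ccl2 had a median of 2 UMIs of fibroblast RNA against 1 in the remainder.

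Ccl11 (eotaxin), the third gene of that locus, stood further above the next class in fibroblast-like cells than Ccl7 did, which was 1.22-fold above it. It stood at 182 (179 to 185) and 150.2 CPM (147 to 153) there, 4.74-fold above the next class over both libraries, and fibroblast-like cells held 90.9% and 92.8% of its UMIs. A UMI was found in 11.8% and 10.7% of fibroblast-like cells, and the top 10% held 98.1% and 99.3% of the UMIs. With so few cells positive, that share is high by construction, as is the 100% found for Cxcl9.

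Cx3cl1 (fractalkine), which is anchored in the membrane and shed from it, had its highest level in endothelial-like cells. Most of its UMIs still lay in the more numerous fibroblast-like cells, 2476 of 3159 in control and 2350 of 2788 in Dox. The endothelial-like class had 337 and 154 of them. Endothelial-like cells held 190.2 (170 to 212) and 167 CPM (141 to 195), 4.63-fold above fibroblast-like cells, which held 37.3 (35.8 to 38.8) and 41.7 (40.04 to 43.4). A UMI was found in 39.95% and 33.2% of endothelial-like cells, and no cell of that class held more than 14. The cells highest in Cx3cl1 had a median of 26 UMIs of fibroblast RNA against 5 in control and 4 against 7 in Dox, with a doublet score of 0.0901 against 0.118 in control. RPE-like cells were at 3.94 CPM (3.21 to 4.79) and 4.69 CPM (3.95 to 5.52), with at most 3 UMIs in a cell.

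Il6 was a gene of fibroblast-like cells, at 73.6 (71.5 to 75.7) and 72.4 CPM (70.2 to 74.6). Smooth muscle-like cells came next, 2.16-fold lower over both libraries. It was detected in 18.1% and 19.3% of fibroblast-like cells, and the top 10% of them held 79.0% and 77.8% of its UMIs, with no more than 14 UMIs in any cell. Those top cells had a median of 2 and 3 Il6 UMIs, and with so few cells positive the share is high partly by construction. RPE-like cells held 4.69 CPM (3.88 to 5.603) and 2.95 CPM (2.37 to 3.63), or 120 and 90 UMIs in all, and macrophage-like cells 19.7 CPM (16.0 to 23.8) and 11.9 CPM (8.27 to 16.5).

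**Figure D2:**
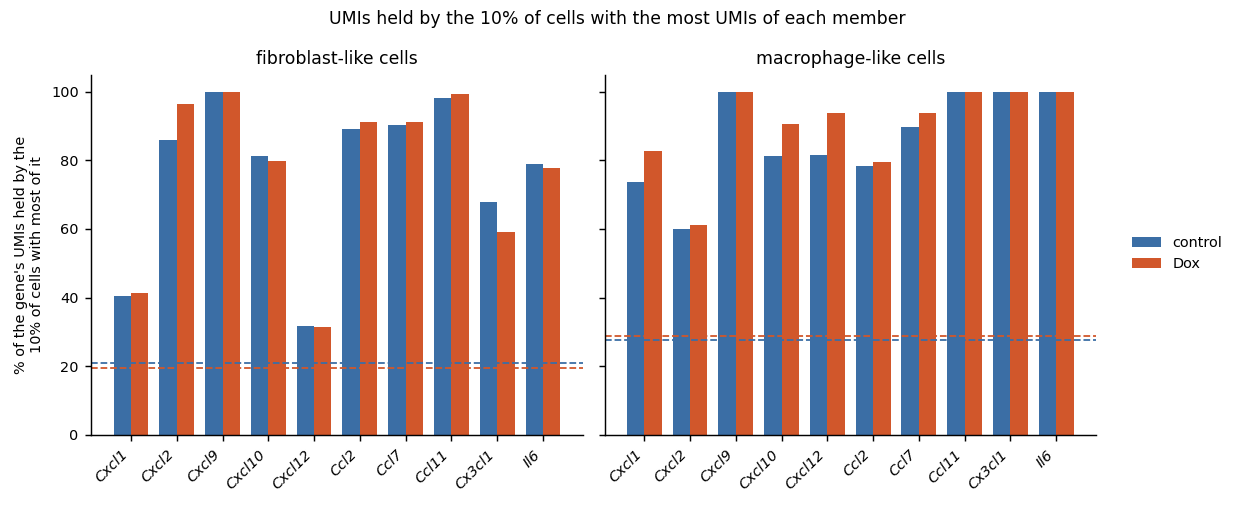
Share of the UMIs of each gene held by the 10% of cells with the most of it, in percent, in fibroblast-like (left) and macrophage-like (right) cells, with one bar per library and dashed lines for the share of all UMIs in the deepest 10% of cells. In fibroblast-like cells Cxcl12 (31.6% and 31.4%) and Cxcl1 (40.4% and 41.2%) stood lowest, and in macrophage-like cells Cxcl2 did (60.0% and 61.1%). Where few cells of a class had a UMI of a gene, its share is high by construction. The dashed lines are no baseline for such genes.

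Fibroblast-like cells did not carry these genes evenly. At a finer clustering the larger groups were one led by Coch, Alkal2 and Ptx3 (7252 control and 6096 Dox cells), one led by Myoc, Gpha2 and Tnmd (2878 and 2359) and one led by Col15a1 and Htra3 (2467 and 1251). The Coch-led and Col15a1-led groups were named by no marker list at that clustering. In the main clustering the larger fibroblast-like cluster took its name through Myoc and Chad. Cxcl10 was at 826 and 952 CPM in the Coch-led and 949 and 959 CPM in the Col15a1-led group, against 153 and 132 CPM in the Myoc-led group, so that the Coch-led group stood 5.40-fold higher in control and 7.23-fold higher in Dox. Ccl11 was 5.92-fold and 10.49-fold higher in the Coch-led than in the Myoc-led group, and Cxcl12 3.22-fold and 3.02-fold. Cxcl1 differed by less, 2.26-fold and 2.39-fold, as did Il6, 2.50-fold and 2.71-fold. For Cxcl9 the Coch-led group was 1.80-fold higher in control and 14.3-fold higher in Dox. Ccl11 was 5.46-fold and 17.5-fold higher in the Col15a1-led than in the Myoc-led group. By CPM, all 10 genes were lower in the Myoc-led than in the Coch-led group in both libraries. The Myoc-led cells were deeper, with a median of 6947 and 7265 UMIs against 4340 and 4921 in the Coch-led cells. Folds per cell were therefore smaller than these folds and are not given here.

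The macrophage-like class also divided. Its larger group, led by antibody genes and Cd209a (878 and 474 cells), held Cxcl2 at 4522 (4461 to 4584) and 2946 CPM (2880 to 3013). The smaller group, led by Chil3, S100a9 and S100a8 and named by no marker list at that clustering (93 and 57 cells), held it at 2087 (1972 to 2207) and 3365 CPM (3182 to 3556), the opposite order. Ccl2 was lower in the smaller group, at 73.0 CPM (52.8 to 98.3) and 85.1 CPM (58.2 to 120), against 685 (661 to 709) and 508 (481 to 536) in the larger. Cxcl10 in the smaller group was 168 (137 to 205) and 575 CPM (501 to 657). Monocytes and neutrophils express S100a8 and S100a9, and the summed level of 5 neutrophil markers in the whole macrophage-like class was 496 and 786 CPM.

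Because most of these genes were abundant in fibroblast-like cells, low levels in other classes had to be set against fibroblast RNA found there. The 6 fibroblast genes summed to 17818 and 16779 CPM in fibroblast-like cells, 1053 and 543 CPM in RPE-like cells and 3234 and 2170 CPM in macrophage-like cells. Per UMI of fibroblast RNA, RPE-like cells in control held slightly more Cxcl1 than fibroblast-like cells did, with a log2 ratio of 0.10 (0.05 to 0.14). Cxcl10 (0.02, -0.07 to 0.11), Ccl2 (0.09, -0.02 to 0.19), Ccl11 (0.04, -0.13 to 0.21) and Il6 (0.11, -0.17 to 0.37) lay close to 0 as well. In the same units Cxcl12 was at -0.14 (-0.22 to -0.07) and Ccl7 at 0.23 (0.11 to 0.34). These 7 genes thus stood to fibroblast RNA in control RPE-like cells much as they did in fibroblast-like cells.

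In both libraries Cxcl2 and Cx3cl1 departed from that ratio in RPE-like cells. Cxcl2 was at 1.81 (1.71 to 1.91) and 0.61 (0.40 to 0.81), and Cx3cl1 at 0.84 (0.54 to 1.13) and 1.80 (1.54 to 2.04). Cxcl9, on 22 UMIs in each library, was at 0.05 (-0.63 to 0.66) and 0.81 (0.12 to 1.42). In Dox, Ccl2 was at 0.67 (0.56 to 0.78), Ccl11 at 0.50 (0.29 to 0.69), Ccl7 at 0.46 (0.32 to 0.59), Cxcl1 at 0.33 (0.28 to 0.38) and Il6 at 0.33 (0.02 to 0.63), while Cxcl10 (-0.08, -0.19 to 0.03) and Cxcl12 (0.02, -0.07 to 0.11) stayed at the ratio of the fibroblast-like cells. The ratios in macrophage-like cells were of another size for their own genes, 7.18 and 7.39 for Cxcl2, 2.82 and 3.00 for Ccl2, 2.41 and 2.08 for Ccl7 and 1.703 and 1.699 for Cxcl10, and -0.13 and 0.04 for Cxcl12. Cxcl1 in macrophage-like cells was at 0.59 (0.55 to 0.64) and 0.75 (0.67 to 0.82), above the ratio of the fibroblast-like cells. In endothelial-like cells Cx3cl1 was at 3.99 and 4.02. There Mgp, one of the summed fibroblast genes, was at 2938 and 2294 CPM, above Dcn at 1983 and 1264. In fibroblast-like cells Dcn, at 9603 and 8580 CPM, was above Mgp, at 4616 and 4719. How much of the sum in endothelial-like cells came from fibroblasts was not tested.

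**Figure D3:**
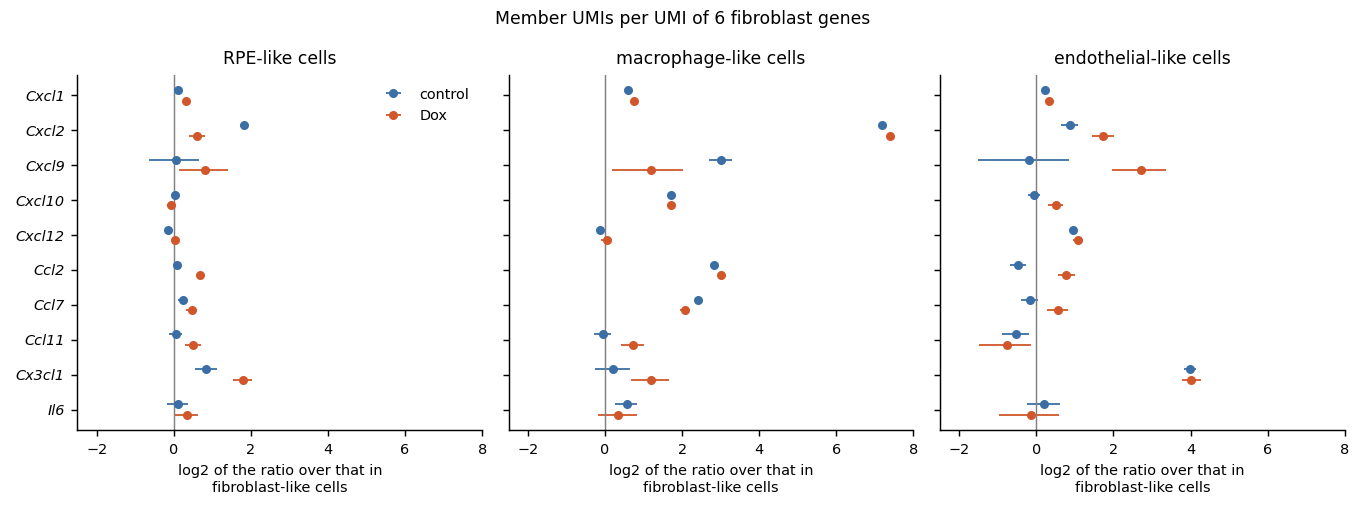
Level of each gene per UMI of fibroblast RNA (Dcn, Mgp, Col1a1, Col1a2, Col3a1 and Lum), as the log2 ratio to fibroblast-like cells of the same library, in RPE-like, macrophage-like and endothelial-like cells, with a point per library and 95% counting intervals. RPE-like cells lay near 0 for most genes in control, while macrophage-like cells were at 7.18 and 7.39 for Cxcl2 and endothelial-like cells at 3.99 and 4.02 for Cx3cl1.

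The RPE-like cells with the most fibroblast RNA held more of these RNAs than their share of all UMIs. The 10% of RPE-like cells with the most fibroblast RNA (143 and 149 cells) held 63.0% and 80.9% of it, but 9.27% and 8.67% of the UMIs of Rpe65, the visual cycle isomerase of the RPE, and 11.8% and 10.6% of all UMIs. At 599 and 660.4 CPM, against 108 and 35.2 CPM in the remaining cells, they held 42.7% of the Cxcl1 UMIs of the class in control and 69.0% in Dox, 44.5% and 66.8% of those of Cxcl12, and 35.0% and 75.6% of those of Il6. Over the 10 genes the share in control ran from 19.2% for Cxcl2, 22.7% for Cxcl9 and 25.7% for Cx3cl1 to 52.6% for Ccl7, the 1 gene over 50%. In Dox it ran from 30.1% for Cx3cl1 and 53.8% for Cxcl2 to 90.9% for Cxcl9, which had 22 UMIs. Their median doublet score was 0.422 and 0.448, against 0.114 and 0.0903 in the remaining RPE-like cells. Whether they were doublets was not tested further.

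**Figure D4:**
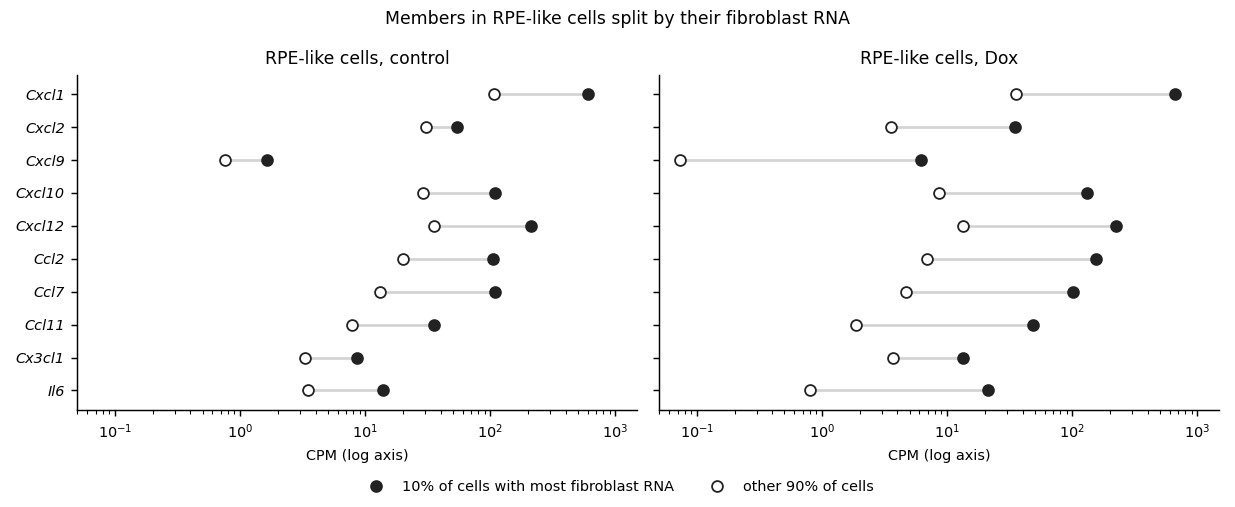
Level of each gene, in CPM on a log axis, in the 10% of RPE-like cells with the most fibroblast RNA (filled) and in the other 90% (open), with a panel for each library. Every gene was higher in the first set, Cxcl1 at 599 against 108 CPM in control and at 660.4 against 35.2 CPM in Dox.

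Rod genes, which mark RNA of the removed retina, gave no usable measure of free RNA, since Rom1, the 1 of 13 above 10 CPM in RPE-like cells, was in 87.5% and 87.7% of RPE-like cells with 30.7% and 30.8% of its UMIs in the top 10%. By contrast the top 10% of RPE-like cells held 77.5% and 90.7% of the Cxcl1 UMIs of that class, in which 34.6% and 25.9% of the cells had one.

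Between the libraries, fibroblast-like cells taken as one class, the highest class for 6 of the 10 genes, held these genes at nearly the same level. This does not hold for each group within the class, since the folds between groups differed between the libraries for Cxcl9 and Ccl11. The ratios of the single groups are not given here. None of the 10 was past 1.5-fold with at least 20 UMIs over both libraries, the size used to call a difference here, where 2.67% of 15532 genes were higher in Dox and 5.32% lower. The log2 ratios of Dox to control ran from -0.28 (-0.32 to -0.24) for Ccl11 to 0.16 (0.08 to 0.24) for Cx3cl1, with 0.15 (0.13 to 0.17) for Cxcl10, -0.07 (-0.08 to -0.06) for Cxcl1, -0.13 (-0.15 to -0.11) for Ccl2 and -0.02 (-0.08 to 0.04) for Il6. Their median was -0.06, against 0.01 over all genes of the class. In the same cells the summed level of 11 melanocyte markers was 2134 and 680.1 CPM, all 11 lower, and their part in these ratios was not tested.

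In RPE-like cells 7 of the 10 genes were lower in Dox by more than 1.5-fold, where 8.98% of 14015 genes were, and none was higher, where 2.77% were. The log2 ratios were -0.71 (-0.78 to -0.64) for Cxcl1, -2.30 (-2.53 to -2.08) for Cxcl2, -0.82 (-0.96 to -0.68) for Cxcl10, -0.65 (-0.77 to -0.54) for Cxcl12, -0.70 (-0.87 to -0.52) for Ccl7, -0.69 (-0.96 to -0.43) for Ccl11 and -0.67 (-1.08 to -0.26) for Il6. Ccl2 (-0.41, -0.56 to -0.26), Cxcl9 (-0.25, -1.17 to 0.67) and Cx3cl1 (0.25, -0.13 to 0.63) did not pass that size. The median was -0.68 against -0.02 over all genes.

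Fibroblast and macrophage RNA was also lower in these cells. The 6 fibroblast genes were all lower by more than 1.5-fold, with a median log2 ratio of -0.90, and of 20 fibroblast markers 12 of the 18 with enough UMIs were lower and 1 higher, their summed level being 1349 and 757 CPM. Of 13 macrophage markers, 10 of the 12 with enough UMIs were lower, their summed level being 234 and 154 CPM. Of 11 melanocyte markers 4 were lower and 1 higher. Ccl4 and Ccl3, chemokines of macrophages, had log2 ratios of -3.08 and -2.51 in RPE-like cells, beside the -2.30 of Cxcl2. Per UMI of fibroblast RNA, 6 of the 7 genes had the opposite sign, between 0.14 for Cxcl10 and 0.30 for Cxcl12, and Cxcl2 remained lower at -1.34. That divisor moves the ratios of all genes of the class upward by the same amount, and the share of all genes that turned was not computed. Without the 10% of cells richest in fibroblast RNA the ratios were larger in size, -1.61 (-1.72 to -1.51) for Cxcl1 and -2.10 (-2.85 to -1.40) for Il6, and Cx3cl1 was at 0.14 (-0.30 to 0.59). In these remaining cells fibroblast RNA was itself lower in Dox, at 442 and 116 CPM. Its part in the larger ratios was not tested.

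In macrophage-like cells 3 of the 10 genes were lower in Dox by more than 1.5-fold and 1 was higher. Ccl7 (-0.88, -1.02 to -0.74), Il6 (-0.73, -1.32 to -0.16) and Cxcl9 (-2.45, -3.50 to -1.56) passed 1.5-fold, where 10.1% of 11729 genes were lower, and Cx3cl1 was higher at 0.64 (-0.05 to 1.32), on 41 and 36 UMIs, where 4.16% were. The direction for Cx3cl1 turned with thinning (-1.68) and with the mean of the cells' own CPM (-0.10), and the cells with Cx3cl1 had median doublet scores of 0.322 and 0.347, against 0.166 in the rest of both libraries. Cxcl2 was at -0.50 (-0.54 to -0.47) and Ccl2 at -0.44 (-0.53 to -0.35), within 1.5-fold, and the median was -0.42 against -0.05 over all genes. These are ratios of the class as a whole and do not hold for each group within it. By the levels given above, Cxcl2 was lower in Dox in the larger group and higher in the smaller group led by Chil3, S100a9 and S100a8. Cxcl10 was also higher in Dox in that smaller group. Fibroblast RNA in this class was 3234 and 2170 CPM, and melanocyte markers 3348 and 1813 CPM, and their part in these ratios was not tested.

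The smaller classes gave fewer UMIs. In melanocyte-like cells 5 of 10 genes were lower (9.78% of all genes) and none higher (9.28%), in a class whose RPE markers summed to 12660 and 32318 CPM. At the finer clustering a group led by Hbb-bs, Hbb-bt and Alas2, named by no marker list, held 920 control and 1285 Dox cells. Its median depth was 807 and 664 UMIs, and the melanocyte-like group beside it held 1237 and 736 cells. The part of the haemoglobin-led group in these counts was not tested. In NK or T-like cells 5 of 9 were lower (11.4%) and none higher (5.96%). In smooth muscle-like cells 2 of 9 were lower (7.08%) and Ccl11 higher (5.75%), with 72 of its 81 Dox UMIs in 1 cell, and without the top cell of each library it was lower (-1.84). In endothelial-like cells 2 of 10 were lower (9.32%), Ccl11 and Il6, and Cxcl9 and Ccl2 were higher (7.63%), with 18 of the 19 Dox UMIs of Cxcl9 in 1 cell, and without the top cell of each library it was lower (-0.64). Macrophage markers summed to 342 and 1507 CPM in endothelial-like cells and to 328 and 119 CPM in NK or T-like cells, and their part in these counts was not tested. Fibroblast RNA was lower in Dox in each of these classes. It was at 5162 and 3130 CPM in melanocyte-like, 4475 and 3545 in NK or T-like, 4593 and 2962 in smooth muscle-like and 5735 and 4123 in endothelial-like cells. Its part in these counts was not tested either. Endothelial Cx3cl1 itself was at -0.19 (-0.48 to 0.09).

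**Figure D5:**
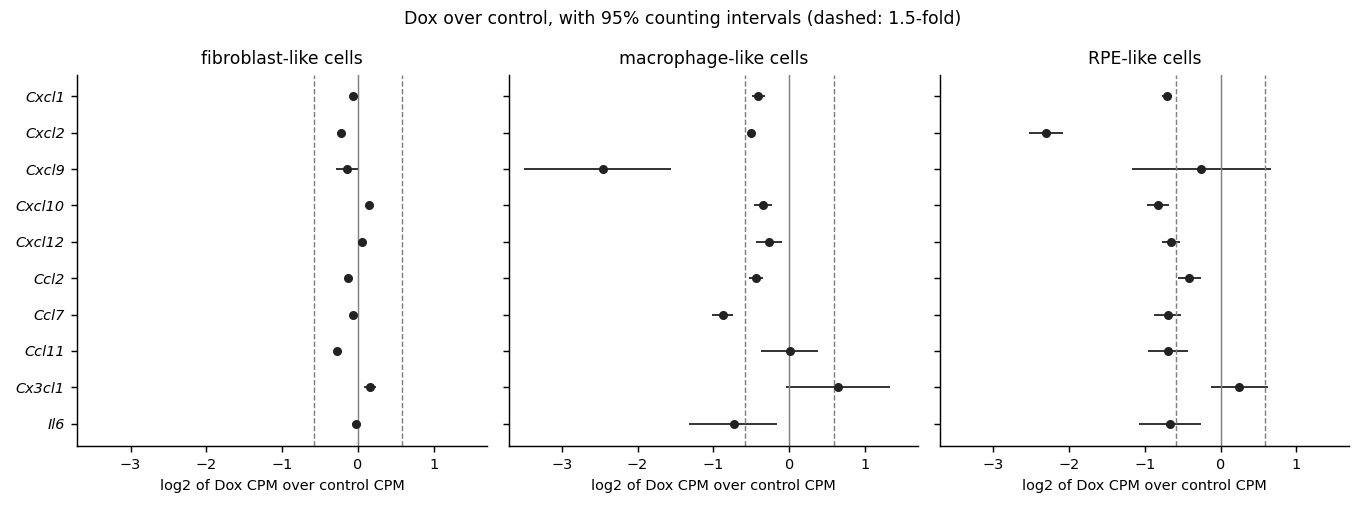
Log2 ratio of the Dox to the control level for each gene in fibroblast-like, macrophage-like and RPE-like cells, with 95% counting intervals, a line at no difference and dashed lines at 1.5-fold. Fibroblast-like cells lay between -0.28 and 0.16 for all 10 genes, whereas 7 of 10 were past 1.5-fold lower in RPE-like cells, with Cxcl2 at -2.30.

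The summed level of 23 chemokine receptor genes was highest in the leukocyte classes, at 1567 and 1580 CPM in macrophage-like and 727 and 790 CPM in NK or T-like cells. Smooth muscle-like cells followed with 250 and 359 CPM, and endothelial-like cells with 110 and 123 CPM. Ccr2, the receptor of Ccl2 and Ccl7, was at 141 and 150.3 CPM in macrophage-like cells and 82.5 and 92.0 CPM in NK or T-like cells, against 0.20 and 0.12 CPM in fibroblast-like cells. Cx3cr1 was at 119 and 103 CPM in macrophage-like cells, and Cxcr3, the receptor of Cxcl9 and Cxcl10, at 88.5 and 66.9 CPM in NK or T-like cells. Chosen after their values were seen, Cxcr2 had 10 and 8 UMIs in macrophage-like cells, and Ccr3 at most 2 UMIs in fibroblast-like, RPE-like, macrophage-like, NK or T-like and endothelial-like cells of either library. Also chosen in that way, Ackr3, the scavenger of Cxcl12, was at 26.7 and 25.5 CPM in RPE-like cells, with a UMI in 33.8% of the control cells against 1.44% of macrophage-like cells, at median depths of 17162 and 4431 UMIs. Of 23 receptor genes, the tested ones past 1.5-fold numbered 2 lower of 10 in fibroblast-like cells, 3 lower of 6 in RPE-like cells, and 2 higher and 1 lower of 10 in macrophage-like cells. Over all tested genes 5.32%, 8.98% and 10.1% were lower in these classes in that order, and 2.67%, 2.77% and 4.16% higher.

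Most genes around Il6 and most inducers of these signals were near their control level in fibroblast-like cells. Of 12 genes of the Il6 family, 1 was lower and none higher in fibroblast-like cells, with Il6st, the shared signalling chain, at 165 and 159 CPM. Over all tested genes of that class 5.32% were lower and 2.67% higher. The binding chain Il6ra was at 81.1 and 93.3 CPM in macrophage-like cells and 1.34 and 1.19 CPM in fibroblast-like cells. Of 17 inducers and feedback regulators 16 had enough UMIs in fibroblast-like cells, 3 of them lower and none higher, with the inhibitor Nfkbia at 1584 and 1568 CPM, Socs3, which limits Il6 signalling, at 1438 and 1399.7 CPM, and Zfp36, which destabilises cytokine RNA, at 7540.1 and 7537 CPM. The 3 lower were Il1b (-1.05), Tnf (-1.25) and Il1a (-2.18), cytokines mostly of macrophages. In macrophage-like cells Il1b was at 2717 and 2574 CPM and Tnf at 654 and 525 CPM. There 2 of 16 were lower, beside 10.1% of all tested genes. Of 7 proteases that cleave or shed chemokines none passed 1.5-fold in fibroblast-like cells, 0 of 6 did in RPE-like cells and 1 of 7 was higher in macrophage-like cells. Over all tested genes 4.16% were higher in macrophage-like cells, and 8.98% lower and 2.77% higher in RPE-like cells.

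Of 28 other chemokines in the files, 8 of the 19 with enough UMIs were lower and 1 higher in fibroblast-like cells, 10 of 15 lower and 1 higher in RPE-like cells, and 2 of 17 each way in macrophage-like cells. The shares over all tested genes, in the same order of classes, were 5.32%, 8.98% and 10.1% lower and 2.67%, 2.77% and 4.16% higher. Ccl4 was at 3737 and 2124 CPM in macrophage-like cells, a log2 ratio of -0.82, and Ccl5, a chemokine of T and NK cells, at 5205 and 5098 CPM in NK or T-like cells. In RPE-like cells the same 2 genes were at 20.03 and 2.36 CPM and at 14.4 and 1.84 CPM.

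Across 18 points, one per class and library, the genes whose log2(CPM + 1) followed each member most closely, of 12193 compared, differed with the source. Cxcl12 went with Bgn and Rcn3 (Pearson's r = 0.99 and 0.98), Il6 with Mrc2 and Cd248 (0.96 each), Cxcl1 with Igfbp4 and Akap12 (0.97 each) and Cxcl10 with Tmem119 and Tmem39a (0.95 and 0.93). Cxcl2 went with Gusb (0.94), Ccl2 with Ccl7 (0.93), Ccl7 with Anpep and G530011O06Rik (0.95 and 0.94), Ccl11 with Arhgap8 and Anpep (0.91 and 0.89), Cxcl9 with Papss2 and Ccl7 (0.81 each), and Cx3cl1 with Tie1 and Stmn2 (0.94 and 0.92). The points of a library share its depth and free RNA, so these values are descriptions.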

How the data were processed

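Gene expression matrices of 2 libraries (10x Genomics, 5′ chemistry) were used. The authors aligned the reads to mm10 with Cell Ranger, for which the sources used here name more than one version, and deposited counts of UMIs per gene and cell. The 10 genes and all gene lists were chosen with earlier results of these data known. The cell filters were more than 500 UMIs, between 200 and 6000 genes, a ratio of log10 genes to log10 UMIs exceeding 0.8, and less than 0.2 mitochondrial. Libraries were integrated with Seurat 5.3.0 and sctransform 0.4.2 (3000 features less chemokines, receptors and Il6; 40 components; resolution 0.1, finer 0.2). Clusters were named where at least 3 markers reached 10 CPM and 1 was among the 10 leading genes, and as RPE-like where Rpe65 was over 4-fold higher, which left 1 unnamed. Doublets were kept and scored with Scrublet (scanpy 1.11.5), whose own threshold called 1941 control and 0 Dox cells and so did not work in Dox.

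Counts were summed per class and library and given as CPM with exact Poisson intervals, ratios with exact conditional binomial intervals and shares with Clopper-Pearson intervals (SciPy 1.17.1). With 1 library per condition no p-value was computed. A difference was called past 1.5-fold with at least 20 UMIs in both libraries together. Genes other than the members were named where they reached 50 CPM in a class, up to 6 per list, or were past 2-fold with 50 UMIs. The scripts were tested on simulated data. In other clusterings each cluster took the class that most of its cells had in the main one. Of the alternatives, the ratio per UMI of fibroblast genes and the RPE-like cells without their 10% richest in fibroblast RNA were added after the data were seen. Some genes that these rules would name are not reported here.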

Additional observations from a re-analysis of the deposited data

Results flagged for a closer look

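In the 7 named classes other than Schwann-like cells, 3 genes were past 1.5-fold in opposite directions, as log2 ratios of Dox to control, and no difference between classes was tested. Schwann-like cells (61 and 33) were left out of this comparison; Cxcl2 was higher in Dox there, at 2.69 (1.66 to 3.85) on 10 and 39 UMIs, and lower in RPE-like cells at -2.30. Ccl11 was at -5.26 in NK or T-like cells (62 control UMIs and 1 Dox UMI), -0.69 in RPE-like cells and -0.91 in endothelial-like cells, and at 1.03 in smooth muscle-like cells, where 72 of 81 Dox UMIs lay in 1 cell. The 10 control NK or T-like cells with Ccl11 had a median of 78 UMIs of fibroblast RNA against 1 in the rest. Their median doublet score was 0.458 against 0.107, and whether they were doublets was not tested. Ccl2 was at -1.07 in NK or T-like cells and -1.08 in melanocyte-like cells, and at 0.73 in endothelial-like cells (197 and 171 UMIs). Cxcl9 was at 2.38 in endothelial-like cells, where 18 of 19 Dox UMIs lay in 1 cell, and at -2.45 in macrophage-like cells, where 77 of 107 control UMIs lay in 1 cell.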

How the results depend on the processing

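No paired analysis was possible because each condition had 1 library, and for the same reason no library could be left out. No gene of the 10 was past 1.5-fold in fibroblast-like cells under any alternative. The 7 genes past 1.5-fold in RPE-like cells became 1 at a 2-fold threshold and 3 per UMI of 6 fibroblast genes, where Cxcl2 was lower and Cxcl9 and Cx3cl1 were higher. The shares of all genes past these sizes were not computed for either setting, so these counts have no background beside them. Division by fibroblast RNA, which was lower in Dox, moves the ratios of all genes of the class upward by the same amount. Per UMI of fibroblast genes the sign was turned in RPE-like cells for Cxcl1 (0.25), Cxcl10 (0.14), Cxcl12 (0.30), Ccl7 (0.26), Ccl11 (0.26) and Il6 (0.29). Without the cells of highest doublet score it turned for Cxcl9 in melanocyte-like (0.14) and endothelial-like (-1.02) cells and for Ccl11 in smooth muscle-like cells (-0.043). Without the top cell it turned for Ccl11 in smooth muscle-like (-1.84) and Cxcl9 in endothelial-like (-0.64) cells. With the mean of the cells' own CPM it turned for Cxcl9 in melanocyte-like (0.0887) and Cx3cl1 in macrophage-like (-0.10) cells, and with thinning for Cx3cl1 in macrophage-like (-1.68) and Ccl7 in NK or T-like (0.13) cells. The cause was not tested. In the smaller classes few UMIs of Cxcl9, Ccl11, Cx3cl1 and Il6 were counted, so that only large differences were detectable there.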
